A study of Mus musculus with 13 samples.

Results

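White adipocyte and lipid storage genes are the genes that fat cells use to secrete their hormones and to take up, coat and release stored triglyceride. The 10 followed here, of 36109 genes listed, were chosen by name: Adipoq, Lep, Retn, Cfd, Plin1, Plin4, Fabp4, Cd36, Lpl and Lipe. The rule itself uses no measured value, but the list was drawn up with earlier results of these data known. All 10 were found by symbol, as protein-coding genes, after the transcripts of each gene were added up.

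RNA was sequenced from mice that lack heme oxygenase 2 (Hmox2-/-, here KO) and from their wild-type littermates (Hmox2+/+, here WT), all kept in room air. The 6 aortic endothelial cell (EC) libraries, 3 of each genotype, held RNA that was flushed out of the aortic lumen with a lysis reagent. The 7 heart libraries, 4 WT and 3 KO, held RNA of whole hearts. The deletion is carried in the whole animal and not in ECs alone, and the sequenced mice were young by the study's account, with sex and genetic background not given in the sources used here. The record calls EC and heart samples matched, but no label ties an EC library to a heart library. The study counts its samples in mice, but the labels do not name the mouse behind a library, so p-values measure the spread between these libraries, which may be partly technical.

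White adipocytes store triglyceride in 1 large droplet coated by perilipins, and release it as fatty acids when hormone-sensitive lipase and its partners cut it. The droplet is filled with fatty acids that lipoprotein lipase frees from blood lipoproteins and that CD36 and fatty acid binding protein carry into the cell. The same cells secrete leptin, adiponectin, adipsin and, in rodents, resistin. The outer coat of the aorta is surrounded by fat, while capillary endothelium and heart muscle also use Cd36, Fabp4 and Lpl for fatty acid supply.

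Library totals were 26067147 to 31138642 estimated counts in ECs and 29815090 to 31619776 in hearts, except heart WT 1 with 7268626. Low values in heart WT 1 rest on fewer reads than those of the other libraries. Hmox2 itself was 63.9 to 76.2 TMM-scaled CPM in EC WT and 12.6 to 14.7 in EC KO, and 37.3 to 42.5 against 7.53 to 8.90 CPM in hearts. Ddx3y, which lies on the Y chromosome, had 61.7 to 86.4 CPM in all 3 EC WT libraries and EC KO 1, but 1.03 in EC KO 2 and 0.920 in EC KO 3, and 37.0 to 86.5 in the hearts. The 4 Y-linked markers summed to 148 to 165 CPM in EC WT and 6.51 to 198 in EC KO. Sex, as read from Y-linked RNA, and genotype are thus partly confounded in the EC comparison and cannot be fully told apart there. CPM are reads of a gene per 1e6 reads of a library, with library sizes adjusted within each tissue by the trimmed mean of M-values (TMM), and serve to compare libraries. TPM divide also by transcript length and serve to compare genes.

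Promoter sequences of the 3 genes called lower in ECs below (Lep, Plin4 and Lipe) are shown beside those of Adipoq and Cfd, which were secreted members that were not called there. Each runs from 250 bases before to 50 bases after an annotated start, 5′ to 3′ on the gene's own strand, in RefSeq's GRCm38.p6 annotation. Transcripts in the deposited data were found by sequence to begin near the Lep, Adipoq and Cfd starts. None was found to begin near those of Plin4 and Lipe, so their counted RNA is not tied to these starts. Capitals mark matches on either strand to any of 6 motifs, some of which can overlap. They are the C/EBP form TTNNGNAA, the TATA box in the form TATAA, the CCAAT box read as CCAAT, the GC box in the form GGGCGG, the core of the hypoxia element in the form ACGTG, and the PPAR form, which is 2 copies of AGGNCA with 1 base between them.
Lep, chr6:29059971-29060270, plus strand: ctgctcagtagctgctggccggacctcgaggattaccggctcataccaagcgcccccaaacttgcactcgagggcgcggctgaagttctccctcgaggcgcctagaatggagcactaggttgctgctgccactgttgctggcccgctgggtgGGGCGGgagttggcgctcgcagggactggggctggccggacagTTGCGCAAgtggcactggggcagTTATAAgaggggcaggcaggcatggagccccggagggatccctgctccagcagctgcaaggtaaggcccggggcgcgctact
Plin4, chr17:56109733-56110032, minus strand: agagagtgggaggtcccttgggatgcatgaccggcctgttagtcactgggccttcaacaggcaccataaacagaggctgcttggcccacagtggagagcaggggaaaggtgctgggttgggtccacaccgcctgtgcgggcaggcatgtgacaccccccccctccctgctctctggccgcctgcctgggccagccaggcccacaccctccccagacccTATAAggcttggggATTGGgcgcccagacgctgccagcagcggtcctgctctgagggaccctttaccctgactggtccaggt
Lipe, upstream start, chr7:25395938-25396237, minus strand: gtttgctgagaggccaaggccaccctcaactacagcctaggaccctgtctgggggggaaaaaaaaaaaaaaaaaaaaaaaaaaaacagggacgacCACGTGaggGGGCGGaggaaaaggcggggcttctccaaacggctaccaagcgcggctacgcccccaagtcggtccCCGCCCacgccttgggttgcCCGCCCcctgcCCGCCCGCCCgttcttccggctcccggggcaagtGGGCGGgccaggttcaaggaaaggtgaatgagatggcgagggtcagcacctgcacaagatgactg
Lipe, downstream start, chr7:25390063-25390362, minus strand: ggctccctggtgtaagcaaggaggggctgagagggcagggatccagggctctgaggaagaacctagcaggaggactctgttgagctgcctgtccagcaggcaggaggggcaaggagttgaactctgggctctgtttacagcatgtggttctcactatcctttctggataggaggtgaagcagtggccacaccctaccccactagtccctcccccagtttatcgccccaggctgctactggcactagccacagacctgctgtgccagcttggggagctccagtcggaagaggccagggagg
Adipoq, chr16:23146286-23146585, plus strand: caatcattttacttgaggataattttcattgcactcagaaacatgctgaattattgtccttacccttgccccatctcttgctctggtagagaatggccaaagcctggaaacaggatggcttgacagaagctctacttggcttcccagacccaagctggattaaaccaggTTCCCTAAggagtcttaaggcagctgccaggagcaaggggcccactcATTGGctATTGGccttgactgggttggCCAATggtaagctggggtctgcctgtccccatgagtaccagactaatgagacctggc
Cfd, chr10:79890603-79890902, plus strand: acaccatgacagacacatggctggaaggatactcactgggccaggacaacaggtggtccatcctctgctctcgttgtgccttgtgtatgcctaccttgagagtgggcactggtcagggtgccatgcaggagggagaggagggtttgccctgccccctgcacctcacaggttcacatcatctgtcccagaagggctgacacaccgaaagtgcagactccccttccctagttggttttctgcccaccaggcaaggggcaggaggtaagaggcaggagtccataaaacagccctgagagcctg

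The table of promoters held 9 entries for 8 of the 10 members, and none under the names Fabp4 and Lpl. The Lep promoter held TTGCGCAA at positions -55 to -48 and TATAA at -31 to -27, counted with 0 as the first transcribed base. Among all 32851 promoters of this length, 40.7% held the C/EBP form and 24.9% held TATAA. Plin4 held TATAA and CCAAT, and Adipoq held 3 copies of CCAAT, a motif present in 37.4% of promoters, and the C/EBP form TTCCCTAA at -81 to -74. The upstream Lipe promoter held 6 GC boxes (35.7% of promoters have at least 1) and a CACGTG in which ACGTG reads on both strands (19.6%). The downstream Lipe promoter and that of Cfd held none of these letters. None of the 8 members with an entry held the PPAR form, which 0.381% of promoters have. The genes that were lower did not all share a motif of this set, and a match describes letters only, not a site or a cause. Of the other members, Retn (chr8), Plin1 (chr7) and Cd36 (chr5) had promoter entries, with no match in Retn and, of the C/EBP form, 3 in Plin1 and 1 in Cd36.

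Adipocyte RNA was abundant in all 6 libraries labelled as ECs, in both genotypes. Ranked by mean TPM, Fabp4 was the 13th gene of 20717 in EC WT and the 17th of 21839 in EC KO, at 7372 ± 1978 and 4645 ± 839 TPM (SD, n = 3 each). Cfd was 22nd and 18th, at 2814 ± 344 and 4202 ± 731 TPM. Adipoq, a hormone made nearly only by adipocytes, was 122nd and 124th, at 851 ± 182 and 695 ± 126 TPM. For comparison, the endothelial junction gene Pecam1 was 364 to 750 TPM in EC WT and 930.5 to 1007 in EC KO, and VE-cadherin (Cdh5) was 51.9 to 96.7 and 81.1 to 85.6 TPM. These libraries thus held markers of adipocytes as well as those of the ECs they are labelled for. Ucp1, which defines brown adipocytes, was 1106 to 1478 TPM in EC WT and 1022 to 1909 TPM in EC KO, and Cidea, of brown and other droplet-bearing adipocytes, was 1266 to 1765 and 718 to 965 TPM.

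On the TPM scale the order of mean levels in EC WT was Fabp4, Cfd, Adipoq, Plin1, Lipe, Cd36, Lpl, Retn, Plin4 and Lep. Plin1 (455 ± 193 TPM), Lipe (420 ± 162), Cd36 (414 ± 84.3) and Lpl (378 ± 95.4) stood within 1 SD of each other. In EC KO the order was Fabp4, Cfd, Adipoq, Lpl, Cd36, Plin1, Retn, Lipe, Plin4 and Lep. Cfd and Fabp4 lay within their spread in EC KO, and so did Lpl and Cd36, and likewise Plin1, Retn and Lipe.

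Hearts showed another order. Lpl led with 1284 to 1510 TPM in WT and 1335 to 1646 in KO, followed by Cd36 (561 to 616 and 598 to 808 TPM) and Fabp4 (272 to 301 and 321 to 483 TPM). Plin4 was 15.5 to 19.2 TPM in heart WT and Lipe 11.8 to 16.8 TPM. Adipoq, Lep, Retn and Plin1 stayed at or under 1.02 TPM in every heart library. Cfd reached 6.67 TPM in heart KO 3. In heart WT 1 none of these 5 genes had a count, which allows up to 3 counts or 0.413 CPM of that library's total, for counting error only.

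**Figure D1:**
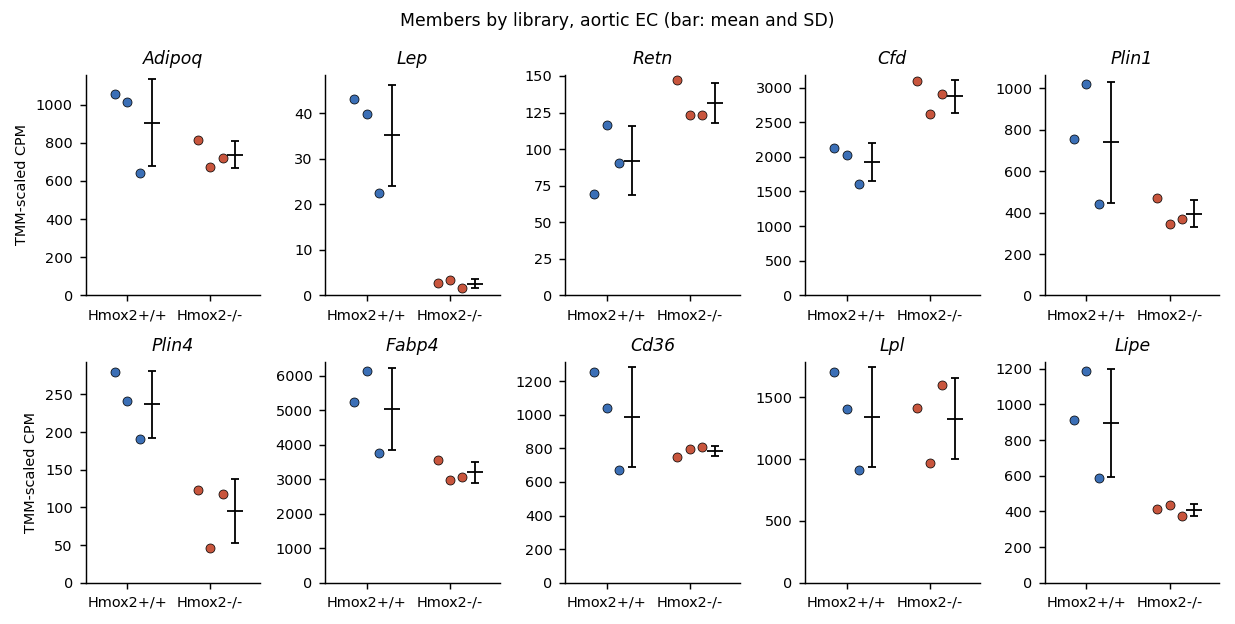
TMM-scaled CPM (vertical axes, each from 0) of the 10 members in the 3 Hmox2+/+ (blue) and 3 Hmox2-/- (red) EC libraries, 1 point a library in replicate order, with mean and SD beside them. The KO points of Lep, Plin4, Fabp4 and Lipe lie below all WT points, and those of Retn and Cfd lie above them.

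In ECs the clearest difference between genotypes was in Lep, the gene of the satiety hormone leptin, followed by the lipase Lipe and the droplet coat gene Plin4, all lower in KO. The secreted genes Cfd and Retn lay on the other side, with higher values in all 3 KO libraries, and Adipoq differed little. The comparison asks how RNA of the aortic samples differed between the genotypes, which in ECs also differ in Y-linked RNA. All 10 members passed the filter on low counts, 3 were called lower and 0 higher by edgeR's quasi-likelihood test (n = 3 against 3, p-values adjusted by Benjamini-Hochberg over all genes, threshold 0.05). At an unadjusted p under 0.05 there were 5 lower and 2 higher, and DESeq2 called 5 lower and 1 higher. Across all 15301 genes tested in ECs, 8.06% were called lower and 10% higher. All 3 called members also changed by at least 1 on the log2 scale, the DEG threshold, which 3.89% of genes passed downward and 5.39% upward. For 6 of the 10 members, 4 lower and 2 higher, the ranges of WT and KO were apart, against 40.7% of all genes. The number called lower was 1 without EC WT 1, EC WT 2, EC KO 1 or EC KO 3, 2 without EC KO 2 and 4 without EC WT 3. The median log2 fold change of the members was -0.49, and that of all genes was -0.02.

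Lep was 43.2, 39.8 and 22.4 CPM in EC WT 1 to 3 and 2.69, 3.49 and 1.54 CPM in EC KO 1 to 3. The lowest WT library stood far above the highest KO library. The mean was 35.1 ± 11.1 CPM in WT and 2.57 ± 0.976 in KO (SD, n = 3), 13.6-fold lower in KO by the fit (log2 ratio -3.77 ± 0.36 SE, adjusted p = 0.0019). EC KO 1, the KO library with Ddx3y, lay between the others. With only the 4 EC libraries that express Ddx3y, 3 WT and 1 KO, the value was -3.70 and the adjusted p was 0.081, in a fit whose spread comes from the WT libraries alone. This was the only one of 15 alternatives in which the call was lost.

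Adipoq, whose product adiponectin raises insulin sensitivity, was 1056.3, 1016 and 642 CPM in EC WT and 813, 675 and 722 CPM in EC KO. All 3 KO values fell inside the WT range. Its fitted log2 ratio was -0.30 ± 0.23 SE (adjusted p = 0.38).

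Retn, the gene of resistin, was 69.4, 117 and 90.2 CPM in EC WT and 147, 123 and 123 CPM in EC KO. Cfd, the gene of adipsin (complement factor D), was 2134, 2026 and 1609 CPM in EC WT and 3097, 2623 and 2901 CPM in EC KO. For both genes every KO library lay above every WT library. The fitted log2 ratios were 0.51 ± 0.19 SE for Retn (adjusted p = 0.10) and 0.58 ± 0.22 for Cfd (adjusted p = 0.0999), so neither was called. DESeq2 called Cfd (adjusted p = 0.0018) and not Retn (adjusted p = 0.065), and over all 15 alternatives the adjusted p of Cfd ranged from 0.0018 to 0.42 and that of Retn from 0.0092 to 0.36. Without EC WT 2, Retn was called, at 0.72 (adjusted p = 0.045).

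Plin1, a coat protein of adipocyte fat droplets, was 755, 1023 and 439 CPM in EC WT and 471, 346 and 368 CPM in EC KO. EC KO 1 lay just above EC WT 3, so the groups overlapped. The fitted log2 ratio was -0.90 ± 0.30 SE (adjusted p = 0.077). Without EC WT 3 it was called, at -1.17 (adjusted p = 0.015).

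Plin4, a perilipin of small nascent droplets, was 279, 241 and 191 CPM in EC WT and 123, 46.5 and 118 CPM in EC KO. The groups did not overlap, and EC KO 2 stood well below the other KO libraries. Plin4 fell, at a fitted log2 ratio of -1.31 ± 0.35 SE (adjusted p = 0.041). The call was lost without EC WT 1 (-1.18, adjusted p = 0.11), EC WT 2 (-1.30, adjusted p = 0.084), EC KO 1 (-1.53, adjusted p = 0.059) or EC KO 3 (-1.48, adjusted p = 0.091). In the M39 annotation 50.6% of the 31-base words of Plin4 transcripts also occur in other genes, most in Hdgfl2, which overlaps its 3′ end on the opposite strand. The Plin4 transcript was listed at 5756 bases in the deposited data and at 6857 in M39, so the share that applied to these counts is uncertain. Hdgfl2 was 34.5 to 38.4 CPM in EC WT and 28.5 to 31.3 in EC KO.

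Fabp4, which carries fatty acids in adipocytes, capillary ECs and macrophages, was 5236, 6123 and 3769 CPM in EC WT and 3553, 2965 and 3076 CPM in EC KO. The groups did not overlap, but EC WT 3 was close to EC KO 1. The fitted log2 ratio was -0.66 ± 0.27 SE (adjusted p = 0.13), and DESeq2 called it (adjusted p = 0.0072). Cd36, the fatty acid receptor, was 1255, 1039 and 669 CPM in EC WT and 751, 798 and 809 CPM in EC KO. The KO values were tightly grouped inside the WT range, at a fitted log2 ratio of -0.33 ± 0.24 SE (adjusted p = 0.36).

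Lpl, whose enzyme acts on lipoproteins at the capillary wall, was 1709, 1408 and 911 CPM in EC WT and 1416, 965 and 1601 CPM in EC KO. The groups interleaved, at a fitted log2 ratio of -0.02 ± 0.30 SE (adjusted p = 0.97). Lipe, the gene of hormone-sensitive lipase, was 914, 1188 and 587 CPM in EC WT and 416, 437 and 374 CPM in EC KO. Every KO library was below every WT library. Lipe fell, at a fitted log2 ratio of -1.13 ± 0.26 SE (adjusted p = 0.027). The call was lost when EC WT 1 (adjusted p = 0.066), EC WT 2 (0.054), EC KO 1 (0.069), EC KO 2 (0.074) or EC KO 3 (0.11) was left out and held without EC WT 3, and the log2 fold change over these fits was -1.37 to -0.88.

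Other cell types moved with genotype in the EC libraries, and their part in the results above was not tested. The summed level of 12 cardiomyocyte markers was 146 to 532 CPM in EC WT and 12.7 to 16.4 in EC KO, with Myl2 at 53.0 ± 55.3 CPM (SD) in WT and at most 0.268 in KO, Actc1 at 48.6 ± 29.4 and 2.15 ± 1.87, and Myh6 at 44.0 ± 29.6 and 0.238 ± 0.194. The 7 mesothelial markers summed to 40.4 to 181 CPM in EC WT and 6.27 to 6.93 in EC KO, led by Upk3b (57.4 ± 35.1 and 1.04 ± 0.392 CPM), Msln (23.3 ± 16.6 and 0.938 ± 0.203) and Lrrn4 (14.5 ± 8.54 and 1.14 ± 0.165). The 8 smooth muscle markers summed to 3464 to 6761 and 1155 to 3786 CPM, with Acta2 at 2296 ± 764 and 1005 ± 782, Tagln at 1139 ± 299 and 519 ± 377, and Myh11 at 934 ± 352 and 215 ± 162. The 12 endothelial markers summed to 3255 to 4728 CPM in WT and 5520 to 6767 in KO (3 called higher, 1 lower and 8 neither). Of these, Pecam1 was 1282 to 1960 and 2722 to 3108 CPM, while Cdh5 overlapped at 225 to 312 and 276 to 340 CPM. The 8 markers of capillary ECs, which also use Fabp4 and Cd36, summed to 571 to 669 and 339 to 382 CPM (1 called lower). The 9 macrophage markers, of a cell type that also uses Fabp4, summed to 434 to 576 and 769.9 to 1223 CPM (5 called higher), and the 8 fibroblast markers to 4822 to 7794 and 9041 to 10824 CPM (3 called higher). In bulk RNA, fewer cells of a type and less RNA of a gene per cell cannot be told apart.

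Genes listed as white adipocyte markers outside the 10 members, 13 in all, summed to 2415 to 4628 CPM in EC WT. In EC KO they summed to 1743 to 2091 CPM, a mean of 0.594 of the WT level. Thrsp, also on the list of fatty acid synthesis, weighed heavily in this sum. Its mean was 1507 CPM in EC WT and 649 in EC KO, without a call (adjusted p = 0.11). Cidec, another of the 13, overlapped, at 542 to 781 CPM in EC WT and 411 to 870 in EC KO. By the fit 10 of the 13 were lower and 3 higher. Of the 13, 2 were called higher (Slc7a10 and Sncg, named after their values were seen), 2 lower (Cebpa and Trarg1, of which Trarg1 was named likewise) and 9 neither. None of the 13 was at 0 in all EC libraries. The 10 brown adipocyte markers summed to 3169 to 5438 CPM and 2687 to 4538 CPM, so the genotypes overlapped in CPM. In TPM they summed to 6271 to 8149 in EC WT and 4617 to 5628 in EC KO, without overlap (0 called higher and 1 lower). Ucp1 stood above Adipoq in TPM in every EC library, and the list names do not tell white from brown adipocyte RNA. The share of white and brown adipocytes was not tested. In an alternative added after the data were seen, EC libraries were scaled to the summed counts of those 13 white markers in place of TMM. Since Thrsp weighs heavily in that sum, the scale follows Thrsp in part and does not measure adipocyte content alone. With it, Lep remained lower at -3.08 (adjusted p = 4.4e-12). Retn and Cfd were called higher at 1.22 and 1.26 (adjusted p = 0.0092 and 0.021). Plin4 and Lipe were not called (-0.61 and -0.39). Adipoq, Fabp4, Cd36 and Lpl turned to 0.41, 0.06, 0.37 and 0.70 without a call.

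**Figure D2:**
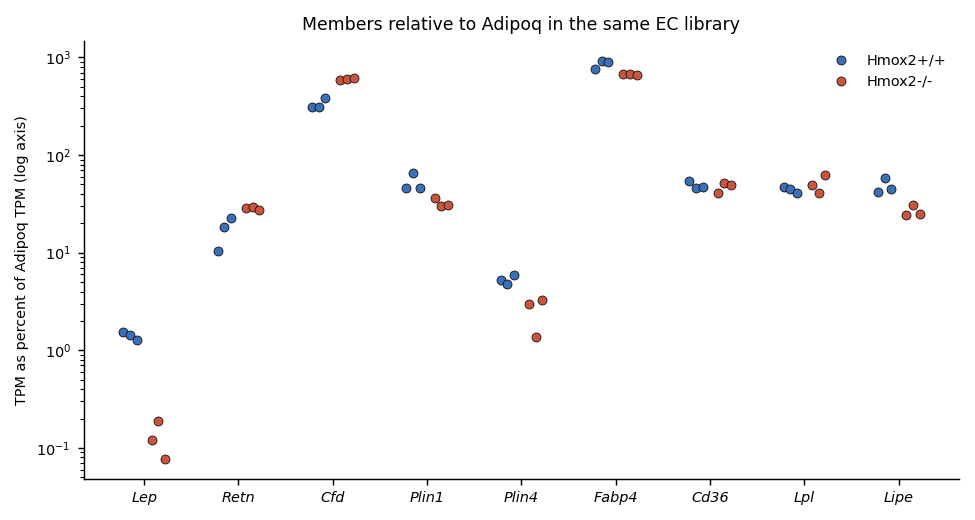
TPM of 9 members as a percent of Adipoq TPM in the same EC library (log axis), for the 3 Hmox2+/+ (blue) and 3 Hmox2-/- (red) libraries, 1 point a library. Lep lies near 1% in WT and below 0.2% in KO, Cfd and Retn lie higher in KO, and Cd36 and Lpl overlap.

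The members were also set against Adipoq in the same library. Lep was 1.26% to 1.53% of Adipoq TPM in EC WT and 0.0773% to 0.187% in EC KO. Cfd was 308% to 388% in WT and 590% to 622% in KO, and Retn 10.5% to 22.4% and 27.3% to 29.3%. Those 2 secreted genes were higher in all KO libraries and Lep was lower in all of them. Plin1 (45.7% to 64.8% and 30.3% to 35.9%), Plin4 (4.72% to 5.93% and 1.37% to 3.25%), Lipe (42.0% to 58.1% and 24.3% to 30.9%) and Fabp4 (762% to 927% and 653% to 676%) were lower without overlap. Cd36 (45.7% to 53.9% and 40.6% to 51.9%) and Lpl (40.6% to 47.6% and 40.5% to 62.8%) overlapped. These ratios are a description, since the counts behind them are those tested above.

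Plin1 also differed in the transcripts to which its counts were assigned, an observation made after the values were seen and given without a test. A protein-coding transcript listed at 1841 bases took 22.5%, 20.4% and 26.7% of the gene's estimated counts in EC WT and 3.99%, 3.51% and 3.98% in EC KO. The main transcript, listed at 2817 bases, took 56.8%, 52.9% and 54.4% and then 77.6%, 78.8% and 81.8%. In counts the shorter one was 3792 to 6246 in WT and 316 to 531 in KO, while the longer one was 7733 to 16187 in WT and 7108 to 10318 in KO. The transcripts share most of their exons, and M39 lists them at 2840 and 3000 bases, so the division between them depends on the transcript models used.

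Among the 13530 genes of at least 1 CPM on average, the patterns most like Adipoq over the 6 EC libraries included those of Timm29, Osbpl9, Tarbp2 and Klhl26, with Pearson's r of 0.989 to 0.994 on log2 CPM. Members followed at 0.91 for Cd36, 0.90 for Plin1 and 0.86 for Fabp4, ranked 179th, 233rd and 425th. Lipe stood at 0.77, Lpl at 0.73, Plin4 at 0.66 and Lep at 0.59, while Cfd was at -0.06 and Retn at -0.34. With 6 points that share library preparation and depth these values only describe.

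**Figure D3:**
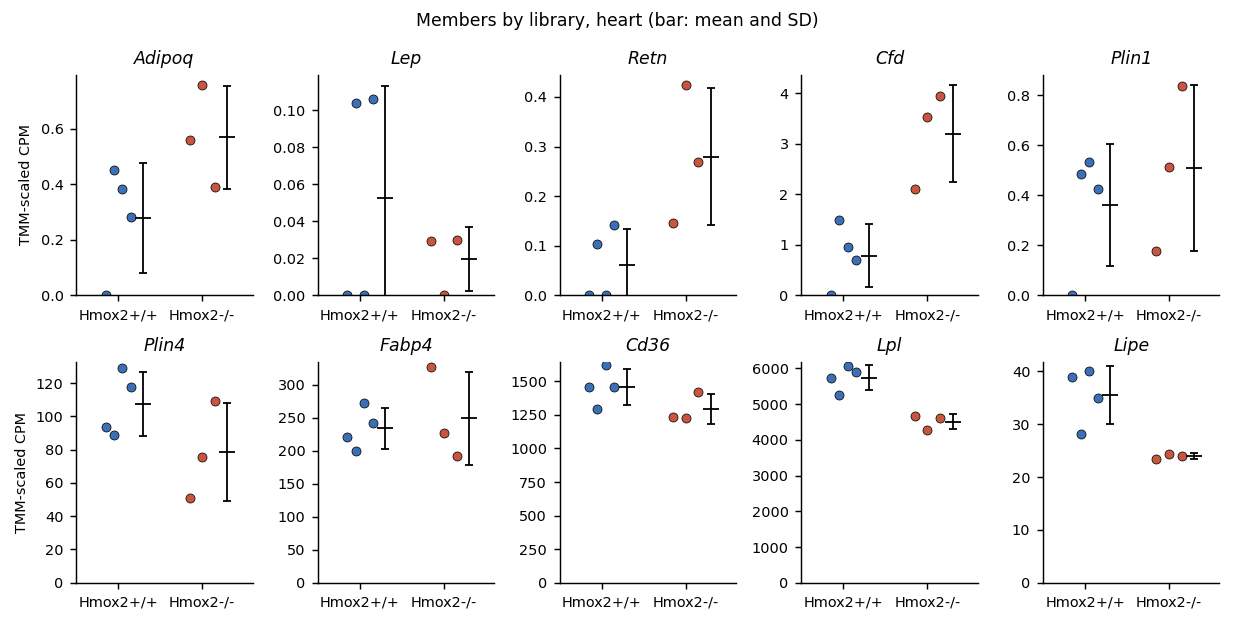
TMM-scaled CPM (vertical axes, each from 0) of the 10 members in 4 Hmox2+/+ (blue) and 3 Hmox2-/- (red) heart libraries, 1 point a library in replicate order, with mean and SD beside them. Lpl and Lipe lie lower in all KO libraries and Cfd higher, while Adipoq, Lep, Retn and Plin1 stay below 1 CPM.

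In hearts the lipases Lpl and Lipe were lower and Cfd was higher in KO, all by smaller fitted ratios than Lep in ECs. Of the 8 members that passed the filter (Lep and Retn did not), 1 was called higher and 2 lower (edgeR, n = 4 WT against 3 KO). Across all 13816 genes tested in hearts, 17.2% were called higher and 16.2% lower, so the members' shares are near the background. Only Cfd passed the DEG threshold, which 2.66% of genes passed upward and 4.05% downward. For 3 of the 8 tested members the genotypes did not overlap, against 40.4% of all genes. The number called lower was 1 without heart WT 3 or heart KO 2, and 3 without heart KO 3. The share of counts from mitochondrially encoded genes was 37.6% to 44.3% in heart WT and 22.5% to 27.2% in heart KO. Summed markers of several other cell types were higher in all KO hearts as well. They were 138 to 205 and 226 to 380 CPM for macrophages (4 of 9 called higher) and 31.3 to 37.2 and 48.5 to 82.9 CPM for mesothelium (5 of 7). Smooth muscle had 1474 to 1718 and 1868 to 2439 CPM (4 of 8, and 1 lower). Endothelial markers had 669 to 802 and 866 to 879 CPM (3 of 12, and 1 lower). Fibroblast markers had 1060 to 1189 and 1233 to 1647 CPM (2 of 8, and 2 lower). Sums of cardiomyocyte and capillary EC markers overlapped. The part of these cell types was not tested. The part of the mitochondrial share was not tested in itself, and with those genes left out each of the 3 calls stayed on its side of the threshold.

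Lpl was 5736, 5243, 6059 and 5909 CPM in heart WT 1 to 4 and 4652, 4279 and 4597 CPM in heart KO 1 to 3. All KO libraries lay below all WT libraries. Lpl fell, at a fitted log2 ratio of -0.35 ± 0.09 SE (adjusted p = 0.016). The call was lost without heart WT 3 (-0.32, adjusted p = 0.054) or heart KO 2 (-0.31, adjusted p = 0.084), with counts rebuilt from length-scaled TPM (-0.23, adjusted p = 0.066) and in a fit of all 13 libraries (adjusted p = 0.28). On the TPM scale the genotypes overlapped and the direction of the means was the opposite, 1364 TPM in WT and 1463 in KO. A 1900-base Lpl transcript annotated as a target of nonsense-mediated decay took 0.005% to 8.49% of its counts in heart WT and 4.18% to 12.3% in heart KO, also seen only afterwards.

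Lipe was 39.0, 28.1, 40.1 and 34.9 CPM in heart WT and 23.3, 24.4 and 24.0 CPM in heart KO. On the CPM scale the KO libraries were tightly grouped below the lowest WT library. On the TPM scale the genotypes overlapped, at 11.8 to 16.8 in WT and 10.4 to 13.6 in KO, with the KO mean still lower. Lipe fell, at a fitted log2 ratio of -0.56 ± 0.13 SE (adjusted p = 0.0070), and was thus lower in KO in both tissues. In the fit of all 13 libraries its adjusted p was 0.051, and 13 of 14 alternatives kept the call.

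Cfd was 0, 1.49, 0.952 and 0.708 CPM in heart WT and 2.12, 3.54 and 3.95 CPM in heart KO, or 0 to 43 against 72 to 132 estimated counts. Every KO library lay above every WT library. The fitted log2 ratio was 1.79 ± 0.43 SE (adjusted p = 0.0097), 3.46-fold higher in KO, and all 14 alternatives kept the call. Its counts are few in both genotypes.

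Adipoq was 0, 0.450, 0.381 and 0.283 CPM in heart WT and 0.558, 0.756 and 0.389 CPM in heart KO. The highest WT library exceeded the lowest KO library. Its fitted log2 ratio was 0.77 ± 0.50 SE (adjusted p = 0.25), on at most 25 counts. Retn had at most 4.03 counts in a WT heart and 5, 14 and 9 in KO hearts, and Lep had at most 3 in any heart, so neither was tested. The same 13 white adipocyte markers summed to 39.9 to 47.2 CPM in heart WT and 50.7 to 67.3 in heart KO, and 4 of the 10 tested were called higher and 1 lower. The heart itself expresses several of them, such as Aqp7 and Pparg.

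Plin1 was at most 0.838 CPM in any heart, at a fitted log2 ratio of 0.26 ± 0.59 SE (adjusted p = 0.76). Plin4 was 93.8, 89.0, 129 and 118 CPM in heart WT and 50.7, 75.5 and 109 CPM in heart KO. Heart KO 3 lay inside the WT range, and the fitted log2 ratio was -0.45 ± 0.22 SE (adjusted p = 0.13). Without heart KO 3 it was called, at -0.77 (adjusted p = 0.0067).

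Fabp4 was 221, 200.2, 273 and 242 CPM in heart WT and 327, 227 and 192 CPM in heart KO, at a fitted log2 ratio of 0.09 ± 0.17 SE (adjusted p = 0.72). On the CPM scale the KO libraries spanned the whole WT range, while on the TPM scale all of them lay above it. Cd36 was 1460, 1293, 1623 and 1457 CPM in heart WT and 1231, 1224 and 1420 CPM in heart KO. The groups overlapped, at a fitted log2 ratio of -0.17 ± 0.11 SE (adjusted p = 0.23), and on the TPM scale the means lay the other way, 598 in WT and 677 in KO. Ucp1 was at most 0.142 CPM in any heart. The brown list nevertheless summed to 544 to 621 CPM in heart WT and 869.6 to 1700 in heart KO, through Cox7a1 (284 ± 26.3 and 682 ± 246) and Cox8b (192 ± 7.66 and 455 ± 197), respiratory chain genes that heart muscle also uses, with Ppargc1a at 72.3 and 78.3.

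Over the 7 hearts the genes most like Adipoq were Nprl3, Tmc6, Kank4, U2af2 and Mta1, with r of 0.964 to 0.981 among 12177 genes. Cfd followed at 0.87, while Lpl and Lipe were at -0.67 and -0.72. Adipoq itself rested on few counts there.

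**Figure D4:**
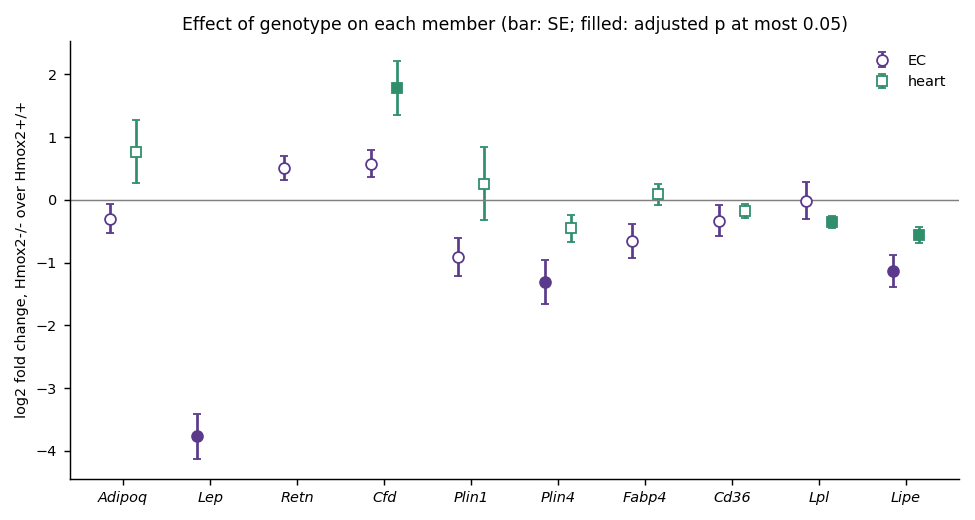
Log2 fold change of KO over WT with its SE for each member in ECs (purple circles) and hearts (green squares). Filled symbols passed an adjusted p of 0.05; Lep and Retn have no heart value. Lep, Plin4 and Lipe are filled in ECs, and Cfd, Lpl and Lipe in hearts.

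Whether the genotype difference itself differed between ECs and hearts was tested over all 13 libraries as a tissue by genotype interaction. Of the 10 members 0 were called by edgeR, against 28.8% of the 15938 genes in this fit, and 4 had an unadjusted p under 0.05. DESeq2 called 3: Fabp4 (adjusted p = 0.022), Cfd (0.0055) and Adipoq (0.040). In the edgeR fit the difference, EC minus heart, was -0.78 for Fabp4 (SE 0.30, adjusted p = 0.066), -1.23 for Cfd (SE 0.47, adjusted p = 0.066) and -1.07 for Adipoq (SE 0.46, adjusted p = 0.095). For Lep it was -2.23 with an SE of 1.81, since hearts held almost no Lep counts. Without EC WT 3 the test called 4 members, Adipoq, Cfd, Fabp4 and Lipe. It called 1 member without heart WT 2, heart KO 1 or heart KO 3.

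**Figure D5:**
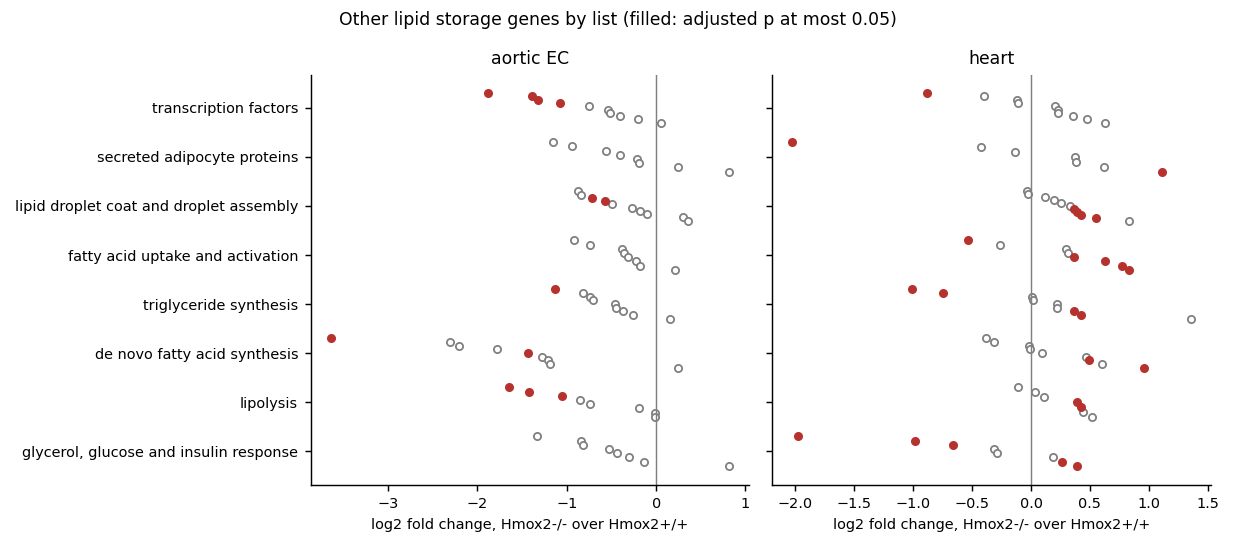
Log2 fold change of KO over WT (horizontal axes) for 70 genes tested in ECs and 69 in hearts, in 8 lists of adipocyte and lipid storage genes outside the members; filled points passed an adjusted p of 0.05. In ECs the 12 filled points lie on the lower side, and in hearts 17 lie on the higher and 8 on the lower side.

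The other genes of the pathway were taken from 8 lists with 71 genes. In ECs 70 were tested, 0 were called higher and 12 lower, against 10% and 8.06% of all genes, 58 were not called, and the median log2 fold change was -0.53. In hearts 69 were tested, 17 were called higher and 8 lower, against 17.2% and 16.2% of all genes, and the median was 0.22 against -0.01 for all genes. DESeq2 called 1 higher and 20 lower in ECs. Leaving out single EC libraries gave 2 (EC KO 3), 4 (EC KO 2), 7 (EC WT 1, EC WT 2 or EC KO 1) or 24 (EC WT 3). In hearts 11 were called higher without heart KO 2.

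Of 10 adipogenic transcription factors 4 were called lower in ECs. Ppara, of fatty acid oxidation, was 86.6 CPM in WT and 23.5 in KO (-1.88 in log2, adjusted p = 0.0074), and Cebpa and Cebpb, factors of adipocyte differentiation, changed by -1.08 (adjusted p = 0.025) and -1.33 (adjusted p = 0.030). Ebf2, a factor of brown adipocyte identity, was 0.06 in ECs (adjusted p = 0.88) and was lower in hearts at -0.89 (adjusted p = 0.0043). Pparg, the main adipogenic factor, was 111 to 214 CPM in EC WT and 101 to 129 in EC KO and was not called (adjusted p = 0.16).

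Of 8 further genes grouped with the secreted adipocyte proteins, not all of them secreted, none was called in ECs. In hearts Rarres2, the gene of chemerin, rose by 1.11 (14.8 to 31.4 CPM, adjusted p = 0.0023), although 29.8% of its 31-base words also occur in other genes, most in Lrrc61. Nnat fell there by a log2 fold change of -2.03 from 0.994 CPM (adjusted p = 0.0048). Angptl4, an inhibitor of lipoprotein lipase, was 269 and 121 CPM in ECs (-1.16, adjusted p = 0.053), and Agt was not called in either tissue (adjusted p = 0.47 in ECs and 0.058 in hearts).

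Of the droplet coat and assembly genes, Plin3 and Plin5 were lower in ECs and higher in hearts: Plin3 at -0.57 and 0.55 (adjusted p = 0.045 and 0.0017), Plin5 at -0.71 and 0.39 (adjusted p = 0.044 and 0.049). Bscl2, the gene of seipin, was higher in hearts at 0.36 (adjusted p = 0.039), as was Fitm1 at 0.43 (adjusted p = 0.0081). In the uptake list 0 of 8 were called in ECs, while Lmf1 (0.78, adjusted p = 6.5e-04), which helps to fold lipases, Fabp5 (0.83, adjusted p = 0.0031) and Slc27a4 (0.63, adjusted p = 0.0050) rose in hearts and Slc27a1 fell (-0.54, adjusted p = 0.0065). Acsl5 was the other gene called higher there.

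In triglyceride synthesis, Lpin1 fell in ECs (244 to 111 CPM, -1.14, adjusted p = 0.0096), and Gpat3 and Gpam, of the first acylation step, changed in hearts by -1.01 (adjusted p = 7.7e-05) and -0.75 (adjusted p = 0.0031), where Agpat2 rose by 0.42 (adjusted p = 0.013). In fatty acid synthesis the desaturase Scd1 was 3443 to 22887 CPM in EC WT and 609 to 1017 in EC KO, -3.64 with an SE of 0.75 (adjusted p = 0.019), and Acacb changed by -1.43 (adjusted p = 0.025). The WT libraries differed widely in Scd1, and the lowest was still above all KO libraries. Thrsp and Scd2 rose in hearts by 0.96 (adjusted p = 0.0049) and 0.49 (adjusted p = 0.024).

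In lipolysis Pnpla2, the adipose triglyceride lipase, fell in ECs (1939 to 936 CPM, -1.05, adjusted p = 0.034), as did its inhibitor G0s2 (372 to 139 CPM, -1.42, adjusted p = 0.0064). Its activator Abhd5 was -0.01 in ECs (adjusted p = 0.98) and 0.43 in hearts (adjusted p = 0.0069), and Lipa rose in hearts by 0.39 (adjusted p = 0.017). Of the genes for glycerol, glucose and insulin response 0 of 8 were called in ECs. In hearts the leptin receptor gene Lepr fell from 6.68 to 1.70 CPM (-1.97, adjusted p = 4.3e-05), Irs2 and Insr changed by -0.98 (adjusted p = 1.6e-04) and -0.67 (adjusted p = 0.017), and the adiponectin receptor gene Adipor1 rose by 0.39 (adjusted p = 0.014).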

How the data were processed

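Paired-end libraries from oligo-dT selected RNA were quantified by the authors with Kallisto 0.44.0, and the deposited files give 118489 transcripts per library with estimated counts, an effective length and TPM. The study's methods and the processing notes name different annotation releases and genome builds, so no coordinate was taken from the files. The deposited estimated counts were not normalized, and the deposited TPM were scaled by the authors' tool to transcript length and library total.

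Both were summed per gene through GENCODE M39 names, which matched 115140 transcripts, and 0.755% to 1.01% of counts had no match. Rounded gene counts were filtered (filterByExpr, minimum count 10), TMM-scaled and fitted per tissue with edgeR 4.0.16's quasi-likelihood test in R 4.3.3. Every adjusted p in the text is from edgeR by the Benjamini-Hochberg method over all genes tested, unless DESeq2 (1.42.0) is named. The interaction was fitted over 13 libraries. Log2 ratios are KO over WT. On simulated counts with 200 changed genes the test was checked first. Replicate libraries differed by more than counting noise. Depth sets the counting error of low heart values.

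The members and all lists were chosen with earlier results of these data known. Named genes were the members, at most 4 genes per pathway list by the smallest adjusted p in either tissue, Ucp1, Cidea, Hmox2, Ddx3y, the 3 highest markers of lists that differed over 2-fold, and the 5 genes most like Adipoq in each tissue, of which 1 is not reported here; other names were added after values were seen. Alternatives were DESeq2, upper-quartile scaling, no filter, length-scaled TPM counts, no mitochondrially encoded genes, the replicate block, all libraries in 1 fit, Y-expressing libraries, a log2 ratio of at least 1, each library left out and, added after seeing the data, scaling to white adipocyte markers. Promoters were from RefSeq GRCm38.p6, and figures were drawn with matplotlib 3.10.9.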

Additional observations from a re-analysis of the deposited data

How the results depend on the processing

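Of the alternative values for single members, 409 stayed on the same side of the threshold with the same direction, 21 newly passed it, 20 no longer passed it and 12 changed sign. DESeq2 called 1 member higher and 5 lower in ECs, 1 and 20 pathway genes there, and 3 members in the interaction. Without a filter the interaction called 1 member. Length-scaled TPM counts left 1 member lower in hearts. In 1 fit of all libraries 5 members and 27 pathway genes were lower in ECs, 0 members were lower in hearts and 9 pathway genes were higher there. In the Y-expressing EC libraries 0 members and 0 pathway genes were lower, but this fit has 1 KO library, assumed to vary like the WT libraries, so the lost calls say little; Lep stayed at -3.70, Lipe at -1.10 and Plin4 at -0.94. With a log2 ratio of at least 1 required, 0 members were lower in hearts, 1 pathway gene was higher and 3 were lower. Scaled to white adipocyte markers, ECs had 2 members higher and 1 lower, and 2 pathway genes higher and 4 lower. Several of those markers, among them Thrsp, Cebpa, Pparg and Cidec, are also pathway genes, so the pathway counts were in part scaled to themselves. The cause of these shifts was not tested.

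Same-numbered WT and KO libraries deviated together at r of 0.21, 0.06 and 0.07 in ECs and -0.07, 0.10 and 0.05 in hearts. Libraries of different numbers ranged from -0.24 to 0.17 in ECs and from -0.15 to 0.075 in hearts. No label says that equal numbers mark a pair, and so few libraries cannot exclude it. With the number as a replicate block 21 pathway genes were lower in ECs, and in hearts 1 member was lower (Lpl was not called, adjusted p = 0.087) and 10 pathway genes were higher.

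Leaving out 1 library at a time gave 0 to 1 members higher and 1 to 4 lower in ECs, 2 to 24 pathway genes lower in ECs, 1 to 3 members lower and 11 to 24 pathway genes higher in hearts, and 0 to 4 members in the interaction. Signs changed for Lpl in ECs (-0.23 to 0.20 over these fits, 0.059 with upper-quartile scaling and 0.084 in the Y-expressing libraries), Fabp4 (-0.16 to 0.25) and Plin1 (-0.29 to 0.67) in hearts, and the interaction of Cd36 (-0.42 to 0.0018). With scaling to white adipocyte markers the EC values of Adipoq (0.41), Fabp4 (0.063), Cd36 (0.37) and Lpl (0.70) changed sign. None of these sign changes involved a call.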
